A study of Drosophila melanogaster with 8 samples.

Results

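The 9 genes described here encode core enzymes and partner proteins of the short interfering RNA (siRNA) and microRNA pathways of Drosophila melanogaster. They are Dcr-2, r2d2, AGO2, Hen1, loqs, drosha, pasha, Dcr-1 and AGO1. They were chosen by name, as the rows whose FlyBase identifiers map to these symbols, and make up 9 of the 17676 gene rows of the count table. All 9 passed the filter on low counts that left 11081 genes for testing. None of the 9 passed the test in either knockdown of FBXO11, Dcr-2 included. A co-expressed Dicer-2 transgene, which fly knockdown crosses often carry to strengthen the hairpin, would add reads to the Dcr-2 row. The level against Control would show such reads only where Control lacks the transgene, which the labels used here do not say.

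Both pathways cut double-stranded RNA into short duplexes and load a single strand into an Argonaute protein. In the siRNA pathway, Dicer-2 cuts long double-stranded RNA of viral, transposon or transgene origin, and Argonaute 2 slices the matching target RNA. In the microRNA pathway, the nuclear Drosha and Pasha proteins cut hairpins out of primary transcripts, Dicer-1 makes the mature duplex, and Argonaute 1 represses partly matched messenger RNAs. Long hairpins expressed from a transgene, a common means of knocking down a gene in fly neurons, are processed by the siRNA branch. The labels used here do not give the type of hairpin.

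The study compared adult heads with a neuronal knockdown of FBXO11, the fly gene for an F-box protein of a ubiquitin ligase, by messenger RNA sequencing of 8 libraries. RNA1 (3 libraries) carries the genotype entry FBXO11 KD1. RNA2 has 2 libraries, with the entry FBXO11 KD2 for replicate 1 and FBXO11 KD3 for replicate 2, although their titles share a name. The tests take these 2 as 1 group by title. Where they differ, the genotype entry and the spread between libraries cannot be told apart. Control (3 libraries) carries the entry FBXO11 WT, and its titles speak of a neuronal knockdown as well. All 8 are given as batch 1. The labels used here name no driver, hairpin, strain, sex, age or Dicer transgene, and do not say whether replicates came from separate crosses, so the p-values measure the spread between these libraries only, which may be technical.

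Counts assigned to genes totalled 32434805 to 41589222 per library. FBXO11 itself had 39.7, 42.5 and 37.5 CPM in RNA1 (edgeR's depth-normalised count with TMM factors), 44.8 and 52.7 CPM in RNA2, and 108, 103 and 97.4 CPM in Control. It fell in both knockdowns, by 1.37 ± 0.09 on the log2 scale (SE) in RNA1 and by 1.08 ± 0.10 in RNA2, with Benjamini-Hochberg adjusted p-values from edgeR's quasi-likelihood test of 4.9e-05 and 0.000539. Neuron markers (elav, nSyb, brp and Syt1, all detected) summed to 3819 to 4728 CPM in RNA1, 4174 to 4367 CPM in RNA2 and 4350 to 4776 CPM in Control, with no marker called in either knockdown. Of the markers of other cells, all 4 hemocyte genes rose in RNA1 and 2 of 4 in RNA2, where 5.01% and 1.76% of all tested genes rose, with sums of 101 to 178 CPM in RNA1, 120 to 146 CPM in RNA2 and 52.2 to 68.3 CPM in Control. The call of Hml in RNA1 was lost in 6 of 16 alternatives. Of 4 fat body markers, bmm rose in RNA1 (0.84 ± 0.14 on the log2 scale, edgeR adjusted p = 0.00888) and 0 were called in RNA2. Their sums were 2446 to 3816 CPM in RNA1, 2771 to 3993 CPM in RNA2 and 2333 to 2836 CPM in Control. Of 5 glial markers, Gli fell in RNA1 and alrm in RNA2 (edgeR adjusted p = 0.0471 and 0.0301), where 5.25% and 2.02% of all tested genes fell. The call of Gli in RNA1 stood in 9 of 16 alternatives. That of alrm in RNA2 was lost with the replicate block and without any 1 Control library. Glial marker sums were 688 to 782 CPM in RNA1, 668 to 777 CPM in RNA2 and 795 to 890 CPM in Control. Their part in the values below was not tested. In heads sequenced whole, fewer cells of a type and less RNA per cell cannot be told apart.

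Dcr-2 encodes Dicer-2, the enzyme that makes siRNAs. Its level was 69.7, 59.4 and 63.6 CPM in RNA1, 52.6 and 65.5 CPM in RNA2, and 52.8, 56.5 and 50.01 CPM in Control. All 3 RNA1 libraries lay above all 3 Control libraries, as they did for 17% of all tested genes. RNA2 replicate 1 lay among the Control libraries and RNA2 replicate 2 above them. The difference in RNA1 was 0.28 ± 0.10 on the log2 scale, or 21% higher, with a 95% interval of 3.63 to 41.3% (unadjusted p = 0.021, edgeR adjusted p = 0.112). In RNA2 it was 0.15 ± 0.11, with a 95% interval of -0.10 to 0.40 (edgeR adjusted p = 0.5). The RNA2 value rests on replicate 2, whose genotype entry differs from that of replicate 1. Without replicate 2 the log2 difference was -0.02, and without replicate 1 it was 0.30. The upper ends of the intervals were thus a rise of 41.3% in RNA1 and of 32.1% in RNA2. The row holds reads from the native gene and from any transgene with its coding sequence, and counts per gene cannot tell these apart.

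r2d2 encodes the double-stranded RNA binding partner of Dicer-2, which helps place the siRNA duplex in Argonaute 2. Its level was 22.8, 22.9 and 21.8 CPM in RNA1, 19.7 and 19.6 CPM in RNA2, and 19.9, 18.8 and 19.0 CPM in Control. The RNA1 libraries lay above all others, and the RNA2 libraries lay among the Control libraries. The log2 difference was 0.23 ± 0.07 in RNA1 (edgeR adjusted p = 0.0812) and 0.03 in RNA2 (edgeR adjusted p = 0.891). RNA2 was 0.20 ± 0.08 lower than RNA1 on the log2 scale (edgeR adjusted p = 0.626). When libraries were scaled by their totals alone in place of TMM, r2d2 crossed the threshold in RNA1, with a log2 difference of 0.27 and an edgeR adjusted p of 0.0469.

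AGO2 encodes the Argonaute that slices siRNA targets, and it varied least among the 9 genes over the 8 libraries (coefficient of variation 2.68%). Its level was 317, 321 and 312 CPM in RNA1, 302 and 329 CPM in RNA2, and 325, 324 and 315 CPM in Control, and the groups overlapped. The 95% interval of the log2 difference ran from -0.17 to 0.13 in RNA1 and from -0.20 to 0.14 in RNA2.

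Hen1 encodes the methyltransferase that adds a methyl group to the 3′ ends of siRNAs, and it was the gene with the fewest reads, 113 to 159 counts per library. It had 3.51, 3.64 and 3.43 CPM in RNA1, 4.23 and 3.81 CPM in RNA2, and 3.42, 3.86 and 3.41 CPM in Control. The groups overlapped in both comparisons with Control. At this depth its interval in RNA2, -0.19 to 0.53 on the log2 scale, was the widest of the 9 genes.

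loqs encodes Loquacious, whose isoforms serve both branches: some assist Dicer-1 and another assists Dicer-2. Counts per gene do not separate these isoforms. Its level was 122, 128 and 127 CPM in RNA1, 163 and 123 CPM in RNA2, and 144, 133 and 153 CPM in Control. It was the single member with all RNA1 libraries below all Control libraries, by 0.19 ± 0.10 on the log2 scale, and this did not pass the test (edgeR adjusted p = 0.265). Among all tested genes, 16.6% lay below Control in this way. The RNA2 libraries straddled the Control range, one above it and one below it, with a log2 difference of 0.18 without replicate 2 and of -0.22 without replicate 1.

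**Figure D1:**
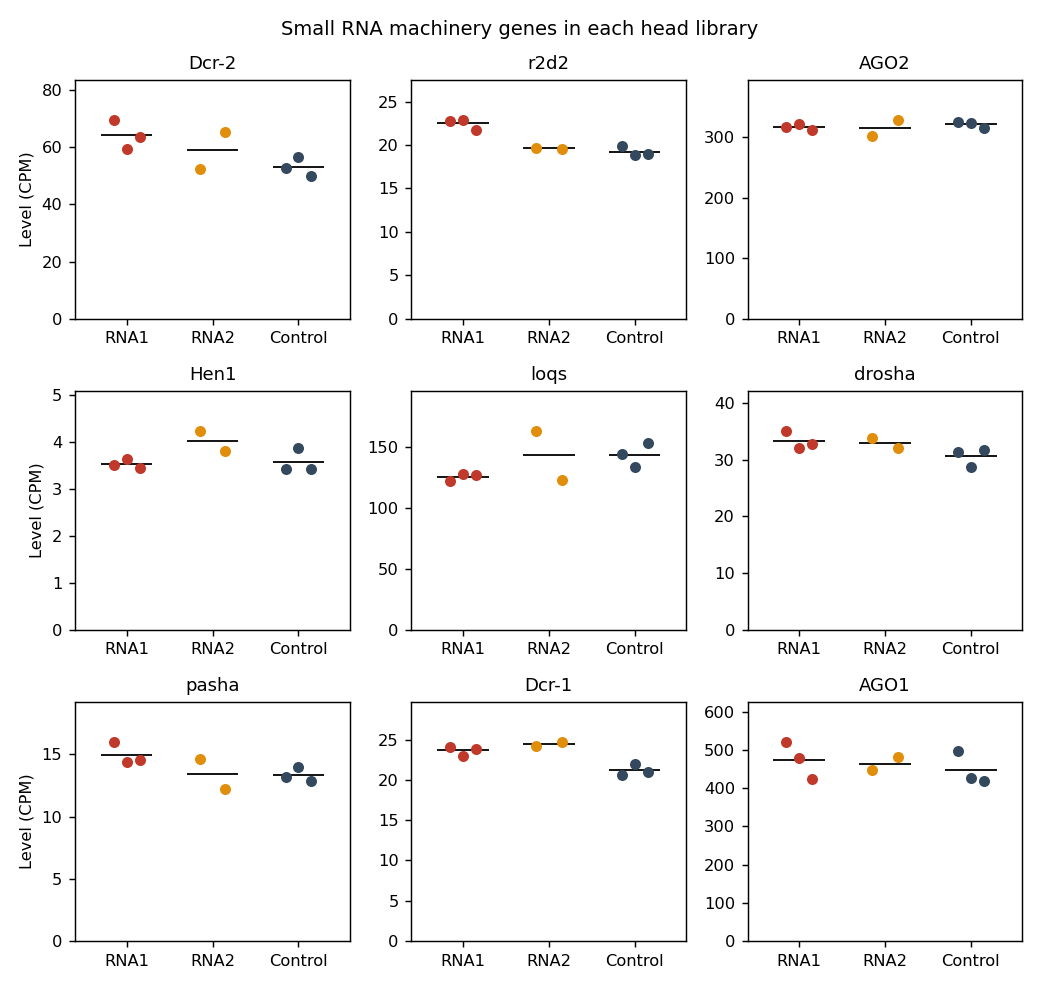
Level of each of the 9 genes in CPM (linear axis from 0) in the 3 RNA1, 2 RNA2 and 3 Control libraries. Points are libraries and bars are group means. Dcr-1 and drosha have all 5 knockdown libraries above all 3 Control libraries, as do 10.7% of all tested genes. AGO2 lies between 302 and 329 CPM throughout.

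In the microRNA branch, Dcr-1 gave the most even difference. It encodes Dicer-1, which cuts the precursor hairpin. Its level was 24.1, 23.02 and 23.9 CPM in RNA1, 24.1 and 24.7 CPM in RNA2, and 20.6, 22.0 and 21.0 CPM in Control. All 5 knockdown libraries lay above all 3 Control libraries, as they did for 10.7% of all tested genes. The log2 difference was 0.16 ± 0.07 in RNA1 (edgeR adjusted p = 0.193) and 0.21 ± 0.08 in RNA2 (edgeR adjusted p = 0.207). For the mean of both knockdown groups against Control, a comparison added after seeing the data, the difference was 0.18 ± 0.07, with a 95% interval of 0.04 to 0.33 (unadjusted p = 0.0196, edgeR adjusted p = 0.111).

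drosha encodes the nuclear enzyme that starts microRNA processing. It had 35.1, 32.1 and 32.8 CPM in RNA1, 33.8 and 32.0 CPM in RNA2, and 31.4, 28.7 and 31.8 CPM in Control. Here too every knockdown library lay above every Control library, but the gap between the nearest libraries was small. The log2 difference of both knockdowns was 0.12, with an edgeR adjusted p of 0.315.

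pasha encodes the RNA binding partner of Drosha. It had 16.0, 14.4 and 14.6 CPM in RNA1, 14.6 and 12.2 CPM in RNA2, and 13.2, 14.0 and 12.9 CPM in Control. The RNA1 libraries lay above the Control libraries and the RNA2 libraries on either side of them. Its log2 difference was 0.16 ± 0.10 in RNA1 (edgeR adjusted p = 0.319).

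AGO1 encodes the Argonaute that carries most microRNAs. It had 522, 479 and 425 CPM in RNA1, 447 and 482 CPM in RNA2, and 498, 426 and 420 CPM in Control. The groups overlapped, and the spread within RNA1 (475 ± 49 CPM, SD, n = 3) was larger than its distance from Control (448 ± 44 CPM, SD, n = 3).

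**Figure D2:**
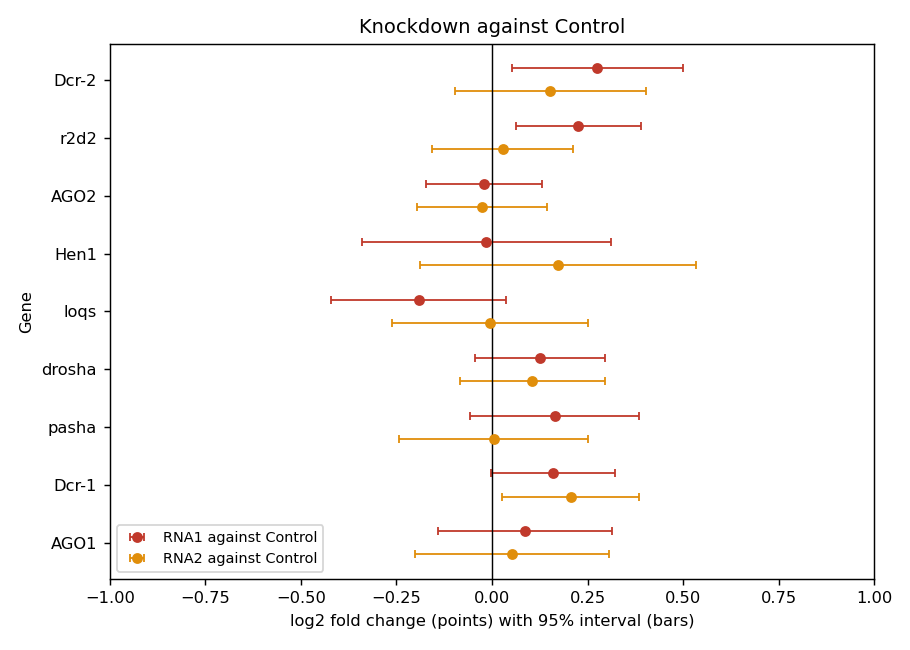
Log2 fold change of each gene against Control in the edgeR fit, for RNA1 (red) and RNA2 (orange). Points are estimates and bars are 95% intervals without adjustment for the number of genes. The intervals for Dcr-2 and r2d2 in RNA1 and for Dcr-1 in RNA2 lie to the right of 0, and none of the 18 estimates passed the adjusted threshold.

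Counted over the genes, 0 of 9 were called in RNA1 at an adjusted p under 0.05, where 10.3% of all tested genes were called (5.01% higher and 5.25% lower). In RNA2 0 of 9 were called, where the share of all tested genes was 3.78% (1.76% higher and 2.02% lower). Between RNA2 and RNA1 0 of 9 were called, beside 0.28% of all tested genes (0.19% higher and 0.0902% lower). With the mean of both knockdowns against Control it was 0 of 9, beside 10.1% (4.44% higher and 5.67% lower). DESeq2 and limma-voom also called none of the 9 in any comparison. At an unadjusted p under 0.05, edgeR gave 2 of 9 in RNA1 (Dcr-2 and r2d2; 26.7% of all genes), 1 of 9 in RNA2 (Dcr-1; 18.4%), and 1 of 9 between RNA2 and RNA1 (r2d2; 7.66%). The mean of both knockdowns against Control gave 2 of 9, Dcr-1 and Dcr-2, beside 26.4% of all genes.

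Libraries of RNA1 and Control did not overlap for 6 of the 9 genes, 5 of them higher in RNA1 (Dcr-2, r2d2, Dcr-1, drosha and pasha) and 1 lower (loqs). Among all tested genes 33.6% did not overlap, 17% higher and 16.6% lower. In RNA2 the count was 2 of 9, Dcr-1 and drosha, both higher, against a background of 38.9%, of which 20.4% were higher and 18.5% lower. Between RNA2 and RNA1 it was 3 of 9, with Dcr-1 and Hen1 higher and r2d2 lower in RNA2, against a background of 20.9% (11.3% higher and 9.61% lower). Dcr-1 and drosha did not overlap between all 5 knockdown libraries and Control, against a background of 21.3% (10.7% higher and 10.7% lower). The median log2 difference over the 9 genes was 0.12 in RNA1, beside 0.01 over all tested genes. In RNA2 it was 0.05, beside 0.01. In size, the median absolute difference of the 9 genes was 0.16 in RNA1 and 0.05 in RNA2, beside 0.18 and 0.16 over all tested genes.

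Levels were compared between genes as CPM per kilobase of merged exons. The Argonautes and loqs stood highest. AGO2 averaged 77.6 CPM per kilobase in Control, above 91.1% of tested genes. loqs averaged 62.6 and AGO1 54.1, and their order was not fixed, with loqs higher in 5 of 8 libraries. AGO1 was 4.43 to 5.67 times the next gene, r2d2, within each library. r2d2 averaged 10.2 CPM per kilobase and Dcr-2 9.34, whose ranges over libraries overlapped as well. Below these, drosha (7.13), pasha (4.16), Dcr-1 (3.07) and Hen1 (2.27) kept this order in 8 of 8 libraries, with no overlap of neighbouring ranges. The microRNA Dicer thus had less RNA per length than the siRNA Dicer in heads of all groups.

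**Figure D3:**
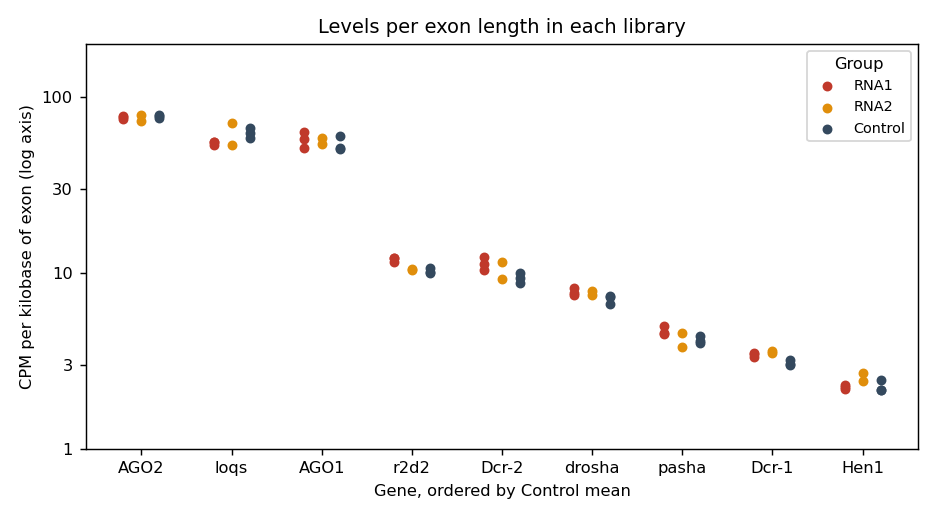
CPM per kilobase of merged exons (log axis) in each library, genes ordered by the Control mean. Each column holds RNA1 (red), RNA2 (orange) and Control (dark blue) points. AGO2, loqs and AGO1 form an upper group, and the other 6 genes lie below a gap, with AGO1 at 4.43 to 5.67 times r2d2.

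Ratios of partners within a library do not depend on scaling between libraries. The ratio of Dcr-2 to Dcr-1 per kilobase was 3.30 ± 0.20 in RNA1 (SD, n = 3), 2.65 and 3.22 in the RNA2 libraries, and 3.05 ± 0.13 in Control (SD, n = 3). The RNA1 range, 3.14 to 3.52, lay just above the Control range, 2.89 to 3.13. Dcr-2 to r2d2 gave 0.945 ± 0.080 in RNA1, 0.884 and 1.11 in RNA2, and 0.914 ± 0.069 in Control, and the groups overlapped. The ratio of loqs to r2d2, the partner proteins of the Dicers, separated RNA1 from the rest. It was 4.40 to 4.78 in RNA1, 5.15 and 6.80 in RNA2, and 5.83 to 6.60 in Control. The ratio of Dcr-1 to loqs was 0.0598 to 0.0654 in RNA1, 0.0491 and 0.0667 in RNA2, and 0.0456 to 0.0545 in Control. AGO2 to AGO1 gave 1.21 to 1.47 in RNA1, 1.35 and 1.36 in RNA2, and 1.30 to 1.52 in Control. For drosha to pasha the values were 1.64 to 1.69 in RNA1, 1.73 and 1.97 in RNA2, and 1.53 to 1.85 in Control. RNA1 and Control overlapped in both. How often ratios of other gene pairs separate the groups was not counted. The ratios given here were not tested, and with 3 libraries against 3 an exact permutation test could not pass the threshold.

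The genes lie on several chromosome arms in the BDGP6 build. Dcr-2 is at 2R:17574979-17581525 on the minus strand, r2d2 at 2L:7800147-7802098 on the plus strand, and AGO2 at 3L:15554113-15561042 on the plus strand. Hen1 is at 2R:12145710-12152752 and loqs at 2L:13382652-13385671, both on the plus strand. drosha is at 2R:7932429-7936840 and pasha at 3R:31617977-31622217, both on the plus strand. Dcr-1 is at 3R:22734007-22741091 and AGO1 at 2R:13943387-13958089, both on the minus strand.

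Some exons are shared with a gene on the opposite strand, and the strand setting of the counting is not given in the sources used here. r2d2 shares 431 exon bases, 22.9% of its length, with Cdc14, a phosphatase gene. Cdc14 had 119 CPM in RNA1 and 141 CPM in Control, a log2 difference of -0.25 (edgeR adjusted p = 0.0587), opposite in sign to r2d2. loqs shares 420 exon bases, 18.3%, with the antisense transcript asRNA:CR44599, which averaged 1.22 CPM in RNA1, 0.955 CPM in RNA2 and 0.679 CPM in Control. AGO2 shares 317 bases, 7.65%, with CG7739. pasha shares 82 bases, 2.55%, with kek6 on its own strand, and kek6 rose in RNA1 by 0.25 ± 0.06 on the log2 scale (edgeR adjusted p = 0.0371). Dcr-2 shares 1 base with Rab4, and Dcr-1 and drosha share none with another gene. The values of r2d2, loqs and pasha are uncertain to the extent that reads in these overlaps were assigned to either gene, which was not tested.

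Of the 18 nearest tested neighbours of the 9 genes, 2 rose in RNA1, kek6 beside pasha and DJ-1alpha beside AGO1, and 0 were called in RNA2. Of all tested genes, 10.3% were called in RNA1 (5.01% higher) and 3.78% in RNA2. DJ-1alpha, a homologue of the human Parkinson's disease gene PARK7, had 7.28 CPM in RNA1 and 4.40 CPM in Control, 0.73 higher on the log2 scale (edgeR adjusted p = 0.0152). Beside Dcr-2, Rab4 differed by 0.13 in RNA1 (edgeR adjusted p = 0.221) and CG6484 by -0.22 (edgeR adjusted p = 0.558).

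The genes whose log2 CPM followed Dcr-2 most closely over the 8 libraries were CG13690 (Pearson r = 0.985), Epg5 (r = 0.983) and muskelin (r = 0.972). They were picked as the highest of all tested genes, so the coefficients are a description. CG13690 had few reads, with a Control mean of 0.364 CPM. Epg5, an autophagy gene, averaged 122 CPM in RNA1, 113 CPM in RNA2 and 101 CPM in Control, and none of the 3 genes was called in either knockdown. For r2d2, the member with the lowest unadjusted p, the closest were FucTB (r = 0.957), Vamp7 (r = 0.949) and FoxP (r = 0.949). FoxP, a forkhead transcription factor gene, rose in RNA1 to 194 CPM, against 122 CPM in Control (edgeR adjusted p = 0.00163).

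Beyond the 9 core genes, the list of chaperones for loading Argonaute proteins held the most called genes of the small RNA lists in RNA1. There 4 of its 7 genes rose and 0 fell (57.1%, beside 5.01% of all tested genes called higher), and in RNA2 0 of 7 were called (1.76% of all tested genes called higher). These chaperones fold many other client proteins, and Cdc37, counted among the 4, encodes a kinase-specific cochaperone, so the list is not specific to small RNAs. The list was also chosen with earlier results of these data known, so its share is a description only. Hsp83, the fly Hsp90, had 1832, 1323 and 2065 CPM in RNA1, 626 and 1093 CPM in RNA2, and 488, 692 and 629 CPM in Control. Every RNA1 library was above every other library, and RNA2 replicate 1 lay within the Control range. Hsp83 rose by 1.53 ± 0.26 on the log2 scale in RNA1 (edgeR adjusted p = 0.0129), while in RNA2 the difference was 0.51 ± 0.28 (edgeR adjusted p = 0.378).

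Stip1, also called Hop, bridges Hsp70 and Hsp90. It had 85.4, 83.0 and 92.4 CPM in RNA1, 47.1 and 63.1 CPM in RNA2, and 39.7, 42.1 and 38.3 CPM in Control, with no overlap between any of the groups. It rose by 1.12 ± 0.11 on the log2 scale in RNA1 (edgeR adjusted p = 0.000422). In RNA2 the difference was 0.46 ± 0.12 (edgeR adjusted p = 0.066), called in 3 of 16 alternatives, and it was 0.66 without RNA2 replicate 1 and 0.23 without RNA2 replicate 2. With all libraries RNA2 was 0.66 below RNA1 (edgeR adjusted p = 0.0803). The cochaperone gene p23 rose by 0.33 ± 0.06 in RNA1 (edgeR adjusted p = 0.0109) and lost its call without Control replicate 2 (edgeR adjusted p = 0.0543). Cdc37, which encodes the kinase-specific cochaperone, rose by 0.42 ± 0.08 in RNA1 (edgeR adjusted p = 0.00972). Hsc70-4, Droj2 and Fkbp59 had log2 differences of 0.14, 0.22 and 0.20 in RNA1, with edgeR adjusted p-values of 0.425, 0.117 and 0.0991. Between RNA2 and RNA1 0 of the 7 passed the edgeR test. DESeq2 called Hsp83 and Stip1 lower in RNA2 than in RNA1 (adjusted p = 0.00547 for Hsp83), and Stip1 was called in 3 of 16 alternatives of this comparison.

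**Figure D4:**
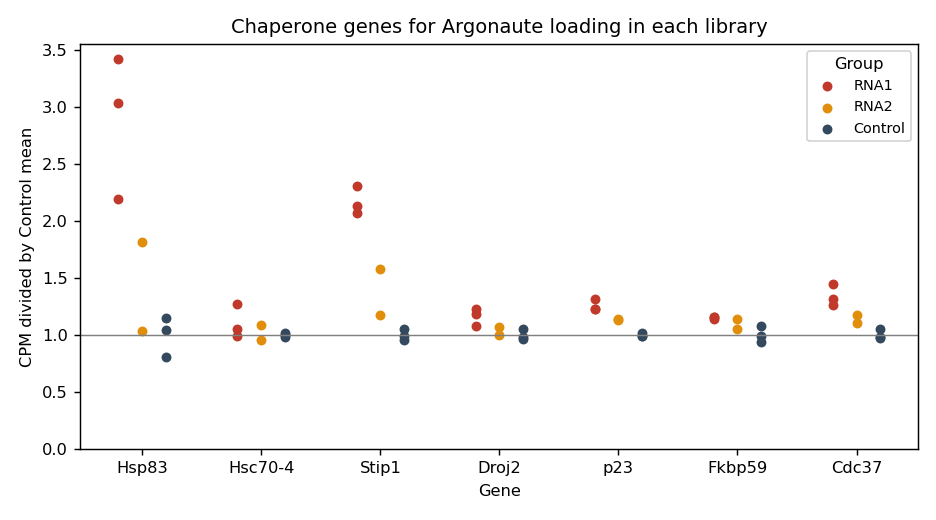
Each library's CPM divided by the Control mean for the 7 genes of the chaperone list, on a linear axis from 0, with the grey line at 1. RNA1 libraries (red) of Hsp83 and Stip1 stand above the RNA2 (orange) and Control (dark blue) libraries, while those of Hsc70-4 spread across the line.

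Few of the other genes of the microRNA pathway were called. Of 14 genes for nuclear export, cap binding, silencing and trimming of microRNAs, 0 were called in RNA1 and 0 in RNA2, by edgeR at an adjusted p under 0.05. The shares of all tested genes called were 10.3% and 3.78%. Ars2, a nuclear cap-binding cofactor, came closest, with 130 CPM in RNA1 and 109 CPM in Control, 0.25 ± 0.07 higher on the log2 scale (edgeR adjusted p = 0.0519). For the mean of both knockdowns against Control, Ars2 was the 1 gene of the 14 called, 0.25 ± 0.06 higher (edgeR adjusted p = 0.0403). In that comparison 4.44% of all tested genes rose. gw, which encodes the GW182 protein that Argonaute 1 uses to silence, had 618 CPM in RNA1 and 659 CPM in Control (edgeR adjusted p = 0.547). Of 20 mRNA decay factors that act after silencing, 0 were called in RNA2, beside 3.78% of all tested genes. In RNA1 1 rose (5%), about the share of all tested genes that rose (5.01%). It was Pop2, a deadenylase of the CCR4-NOT complex, with 138, 132 and 136 CPM in RNA1, 136 and 132 CPM in RNA2, and 110, 115 and 116 CPM in Control. All 5 knockdown libraries of Pop2 lay above Control, as they did for 10.7% of all tested genes. Its difference was 0.25 ± 0.06 on the log2 scale in RNA1 (edgeR adjusted p = 0.0302), and the call was lost with no filter, with the replicate block and on leaving out any single RNA1 or Control library.

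Among 6 other genes of siRNA and antiviral defence, pst fell in RNA1 and 0 were called in RNA2. Of all tested genes, 5.25% fell in RNA1 and 3.78% were called in RNA2. pst (pastrel), known for its effect on survival of picorna-like virus infection, had 185, 222 and 220 CPM in RNA1, 272 and 276 CPM in RNA2, and 262, 306 and 284 CPM in Control. It fell by 0.44 ± 0.09 on the log2 scale in RNA1 (edgeR adjusted p = 0.0163). Without Control replicate 2 or without Control replicate 3 the call was lost, with edgeR adjusted p-values up to 0.0753. RNA2 lay within the Control range.

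The Piwi-interacting RNA (piRNA) pathway silences transposons mainly in the germline, and 32 of its 35 listed genes passed the filter in these heads. In RNA1 1 of 32 rose and 0 fell (3.13%, beside 5.01% of all tested genes that rose). In RNA2 2 rose and 1 fell (6.25% rose, beside 1.76% of all tested genes). del (deadlock), part of the complex that licenses piRNA clusters, had 13.7, 12.1 and 10.9 CPM in RNA1, 13.2 and 12.4 CPM in RNA2, and 9.67, 8.26 and 8.14 CPM in Control. It rose by 0.49 ± 0.12 on the log2 scale in RNA1 and by 0.56 ± 0.13 in RNA2 (edgeR adjusted p = 0.0282 and 0.0471). krimp, a Tudor domain gene, rose in RNA2 by 1.06 ± 0.23 (edgeR adjusted p = 0.0381), with 3.26 and 3.75 CPM in RNA2 and 1.59, 1.34 and 2.13 CPM in Control. In RNA1 krimp had 2.90, 2.92 and 2.46 CPM, also above Control, and was not called, though 2 of 16 alternatives called it. vas, the germline helicase gene, fell in RNA2, with 9 and 8 counts in RNA2 and 54, 31 and 33 counts in Control (edgeR adjusted p = 0.0344). These calls were fragile: the RNA2 calls of del and vas stood in 6 of 16 and 6 of 15 alternatives, and that of krimp in 9 of 16. In RNA1 vas had 18, 19 and 21 counts and was not called. The eggshell gene Cp38 was called lower in RNA1 and not in RNA2. It had 0.319, 0.723 and 0.456 CPM in RNA1, 0.167 and 1.33 CPM in RNA2, and 4.59, 8.43 and 8.14 CPM in Control. Of the 7 ovary and germline markers 2 passed the filter. Sums over all 7 markers were 0.878 to 1.42 CPM in RNA1, 0.501 to 1.71 CPM in RNA2 and 6.13 to 9.70 CPM in Control. Their part in the values of vas was not tested.

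**Figure D5:**
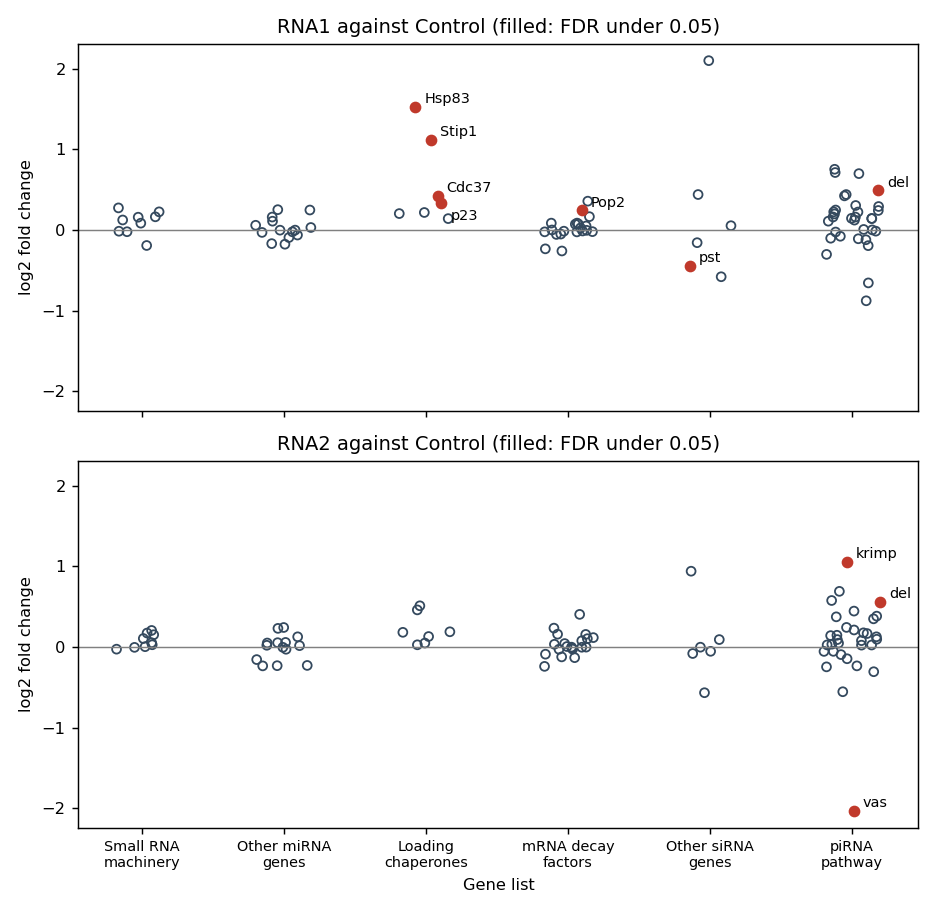
Log2 fold change of every tested gene of 6 lists, in RNA1 against Control (upper panel) and RNA2 against Control (lower panel). Filled red points passed an adjusted p under 0.05 and are named. The small RNA machinery and the other microRNA genes hold no filled point in either panel.

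Of 257 annotated microRNA genes in the table, 14 passed the filter. In RNA1 mir-9382 fell and 0 rose, beside 5.25% of all tested genes that fell and 5.01% that rose. In RNA2 0 of the 14 were called, beside 3.78% of all tested genes. The median log2 difference of the 14 was 0.50 in RNA1, with 8 positive, and 0.11 in RNA2, with 9 positive. mir-9382 had 0.612, 0.834 and 0.699 CPM in RNA1, 0.863 and 1.239 CPM in RNA2, and 1.49, 1.63 and 1.496 CPM in Control. It fell by 1.10 ± 0.26 on the log2 scale in RNA1 (edgeR adjusted p = 0.0264), and the call stood in 9 of 16 alternatives. This locus lies within the span of MRP on the same strand, and MRP fell in RNA1 by 0.38 ± 0.08 (edgeR adjusted p = 0.014). Counts on a host transcript and on a hairpin within it cannot be told apart here, and mature microRNAs were not measured.

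Genes often used as visible markers of fly transgenes were read beside Dcr-2. w (white), which encodes a transporter of eye pigment precursors, had 228, 262 and 245 CPM in RNA1, 256 and 216 CPM in RNA2, and 59.3, 63.3 and 66.5 CPM in Control. Every knockdown library stood far above every Control library. w rose by 1.96 ± 0.09 on the log2 scale in RNA1 and by 1.91 ± 0.10 in RNA2 (edgeR adjusted p = 6.41e-06 and 1.25e-05). The other two markers were not called: v (vermilion) averaged 26.6 CPM in RNA1, 32.1 CPM in RNA2 and 34.1 CPM in Control, and y (yellow) 0.620 CPM in RNA1, 0.485 CPM in RNA2 and 0.746 CPM in Control. The row of w does not tell the native locus from a marker copy, and the labels do not give the constructs. The estimates in RNA1 were 21% higher for Dcr-2 and 289% higher for w.

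Among 10 genes of neuronal function, 1 fell in both knockdowns and the other 9 were called in neither, by edgeR at an adjusted p under 0.05. It was ChAT, the enzyme gene of acetylcholine synthesis, with 135, 145 and 138 CPM in RNA1, 140 and 147 CPM in RNA2, and 193, 187 and 177 CPM in Control. ChAT fell by 0.41 ± 0.07 on the log2 scale in RNA1 (edgeR adjusted p = 0.00562) and by 0.37 ± 0.07 in RNA2 (edgeR adjusted p = 0.025). The RNA2 call was lost with the replicate block and without any 1 Control or RNA2 library (edgeR adjusted p up to 0.21). Among all tested genes 5.25% fell in RNA1 and 2.02% in RNA2. ChAT shares 606 exon bases, 15.1% of its length, with VAChT on its own strand. VAChT differed by -0.26 on the log2 scale in RNA1 and by -0.36 in RNA2 (edgeR adjusted p = 0.223 and 0.222). The part of this overlap in the values of ChAT was not tested.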

How the data were processed

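Heads of 8 samples were measured by stranded messenger RNA sequencing, and the authors deposited raw counts per gene. The submitters' processing notes name bcl2fastq 2.17, cutadapt 1.18, FastQC 0.11.8, STAR 2.6.1, SAMtools 1.8, DESeq2 1.24.0 and the BDGP6 build. No source read here names the counting tool or its strand setting. Counts were fitted with edgeR 4.0.16 in R 4.3.3 (quasi-likelihood, robust, TMM, 1 mean per group, all 8 libraries), after filterByExpr (minimum count 10, total 15) left 11081 genes, with Benjamini-Hochberg adjustment and a threshold of 0.05. Alternatives used DESeq2 1.42.0, limma 3.58.1 voom, other scalings and filters, a replicate block and leaving out each library. The scripts were tested on simulated data. Lengths and positions came from the Ensembl annotation of BDGP6. Gene symbols were matched for 17549 of 17676 rows. The genes named are the 9, FBXO11, list genes that passed the threshold, transgene markers, nearest neighbours and the 3 genes most correlated with Dcr-2 and r2d2, plus genes that overlap them. Ars2, gw, Cp38 and the chaperones not called were named after their values were seen. The 9 genes and all lists were chosen with earlier results of these data known. The comparison of both knockdowns and the counts of groups without overlap were added after seeing the data. No sequences are shown.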

Additional observations from a re-analysis of the deposited data

How the results depend on the processing

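The 9 genes gave 0 calls under all alternatives of all comparisons, except 1 call in RNA1 with library totals as the scaling (r2d2, log2 difference 0.27, edgeR adjusted p = 0.0469). That scaling moved the median of all genes by 0.04 in RNA1 and in RNA2 and gave 733 genes higher and 487 lower in RNA1, beside 555 and 582 with TMM, and 242 higher and 186 lower in RNA2, beside 195 and 224. Over alternatives the log2 difference of Dcr-2 in RNA1 ran from 0.21 to 0.33 (edgeR adjusted p 0.0695 to 0.279), that of r2d2 in RNA1 from 0.21 to 0.27, and that of Dcr-1 in RNA2 from 0.18 to 0.24 (edgeR adjusted p 0.151 to 0.519). With DESeq2, 910 genes were called in RNA2, beside 419, and 147 between RNA2 and RNA1, beside 31, where the stricter filter left 14. The cause was not tested.

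Leaving out 1 library at a time gave 476 to 1189 calls over all genes in RNA1, 115 to 561 in RNA2, 17 to 40 between RNA2 and RNA1, and 443 to 1229 for the mean of both knockdowns against Control, beside 1137, 419, 31 and 1120. The RNA1 count fell most without any 1 Control library or without RNA1 replicate 2, and the RNA2 count without RNA2 replicate 1 or any 1 Control library. The replicate numbers carry no stated pairing. Deviations from group means, for libraries sharing a number, correlated at -0.17 to -0.02 between RNA1 and Control. They correlated at -0.33 and -0.31 between RNA2 and RNA1, and at 0.05 and 0.28 between RNA2 and Control. Deviations within a group are tied to each other through their mean, so these values cannot exclude a pairing. With the replicate block, 773 genes were called in RNA1, 214 in RNA2, 17 between RNA2 and RNA1 and 761 for the mean of both, and 0 of the 9 genes in each.

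Of 144 values of the 9 genes in RNA1, 4 changed sign, as did 17 of 144 in RNA2, 9 of 144 between RNA2 and RNA1, and 2 of 135 for the mean of both knockdowns; no such value was called. With library totals the turned log2 differences were 0.0184 (AGO2) and 0.0242 (Hen1) in RNA1, 0.0106 (AGO2) and 0.0318 (loqs) in RNA2, and 0.0145 (AGO2) for the mean of both. In RNA2 pasha turned to -0.0076 with DESeq2's size factors, -0.0074 with DESeq2 and -0.0246 with the replicate block, loqs to 0.0016 with no filter, 0.0016 with the stricter filter and 0.0157 with the block, and AGO1 to -0.0038 with the block. With no filter AGO2 turned to 0.000558 between RNA2 and RNA1. Leaving out 1 library, the RNA2 values ran from -0.0211 to 0.303 (Dcr-2), -0.0948 to 0.0331 (AGO2), -0.223 to 0.180 (loqs), -0.0080 to 0.136 (AGO1) and -0.134 to 0.123 (pasha). Hen1 ran from -0.0496 to 0.0482 in RNA1, and AGO2 from -0.0575 to 0.0058 for the mean of both. Between RNA2 and RNA1 the ranges were -0.296 to 0.0286 (Dcr-2), -0.0745 to 0.0546 (AGO2), -0.0304 to 0.371 (loqs), -0.107 to 0.0395 (AGO1) and -0.0585 to 0.0186 (drosha).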
